A study of Mus musculus with 134 samples.

Results

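Polycomb repressive complex 2 (PRC2) writes H3K27me3, a histone mark of silenced developmental genes in embryonic stem cells. Its core (Ezh2 or Ezh1, Eed, Suz12, Rbbp4 or Rbbp7) binds accessory subunits in alternative forms. In one form, PRC2.2, Aebp2 and Jarid2 join the core. In the other, PRC2.1, one of the Polycomb-like proteins Phf1, Mtf2 and Phf19 joins it, together with Epop or Lcor. The account below concerns the 6 accessory subunit genes Aebp2, Jarid2, Mtf2, Phf1, Phf19 and Epop, taken by their gene symbols from the 25209 genes of the bulk count tables and from both single-cell read tables. All 6 were found in the bulk tables. Epop was listed in neither single-cell table, and Phf1 was listed only in that of the H3K4me3 cells.

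The study developed SET-seq, in which cytoplasmic RNA and nuclei of the same mouse embryonic stem cells (ES-E14TG2a, untreated unless stated, grown with serum and LIF and without feeder cells) were separated, the RNA was reverse transcribed with oligo-dT and the mRNA/cDNA hybrid was cut by Tn5, while the nuclei went through CUT&Tag with an antibody against H3K27me3 or H3K4me3. The 54 bulk expression libraries comprised 28 in vitro libraries made from purified total RNA, 2 ligation-based libraries, 8 SET-seq libraries without antibody (10, 100, 1000 and 10000 cells), 12 SET-seq libraries with either antibody (100, 1000 and 10000 cells) and 4 H3K27me3 SET-seq libraries of Aebp2 knockout (KO) cells, with 2 libraries in each group. The 8 SET-seq libraries are called without antibody here because their labels name none. In SET-seq the RNA is moved to another tube before the antibody is added to the nuclei. The in vitro series varied the Tn5 amount (25, 50 and 100 ng/µl), the RNA amount (300 ng, 3 ng and 30 pg) or the temperature (16 °C and 37 °C) and time (5, 10, 15 and 30 min). The KO cells were 2 CRISPR/Cas9 clones (KO1 and KO2), each made with another guide RNA and assayed in 2 experiments, so that a value of a clone is that of 1 clone and not of the genotype in general. The number of KO cells per library and the match of guide to clone are not given in the sources used here. In the single-cell experiments, cells were grown for 12 h with beads that carried the Wnt3a protein, and the 2 daughters of a divided cell were picked as the one near to (proximal) and the one far from (distal) the bead.

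The bulk libraries held between 235040 and 21520982 counts in genes, with the 4 KO libraries at 1964974 to 2351822. The ribosomal RNA precursor Rn45s took 48.8% to 56.7% of the counts in the KO libraries against 21.9% and 23.4% in the 2 WT libraries of 10000 cells with the same antibody, and it was left out of all totals below. The 8 pluripotent cell markers, summed, stood at 3697 to 4279 CPM (counts in each 1000000) in the KO libraries and at 5303 to 5824 CPM in the 6 WT H3K27me3 libraries. Other library types overlapped the KO range, at 3805 to 6087 CPM in SET-seq without antibody, 3969 to 4268 CPM in vitro at 16 °C and 4021 to 4442 CPM in vitro at 37 °C. Hprt, the purine salvage gene for which ES-E14TG2a is known to be deficient, had at most 1.29 CPM in any in vitro library and 0, 2.14, 0 and 0 CPM in the KO libraries, but 66.2 to 485 CPM in the 20 SET-seq libraries of WT cells and 181 and 184 CPM in the ligation-based libraries. The KO libraries therefore differed from the WT SET-seq libraries in Hprt as well as in genotype, and a change of genotype cannot be told apart from a change of cell stock or handling in that comparison.

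Aebp2 transcripts were counted over all exons of the gene (chr6:140571184-140626993 in mm9, plus strand), so that the counts do not show the edit itself and an RNA with a short insertion or deletion would still be counted. Both guide targets were found once in the mm9 genome and are shown with 30 bases on either side because they place the edits within the coding sequence. The capitals mark the target and, as its last 3 bases, the PAM that Cas9 requires.
Aebp2 sg#1: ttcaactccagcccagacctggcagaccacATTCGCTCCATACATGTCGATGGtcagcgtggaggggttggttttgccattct
Aebp2 sg#2: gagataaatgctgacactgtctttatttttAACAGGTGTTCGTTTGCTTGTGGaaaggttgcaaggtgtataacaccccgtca
The first target (chr6:140582382-140582401, plus strand) lies within a coding exon (140582210 to 140582417). The second (chr6:140586176-140586195, plus strand) crosses the start of a later coding exon (140586181 to 140586288), with the expected cut after base 140586192. Each target overlaps the coding sequence of 9 annotated Aebp2 transcripts and no UTR. The annotation holds 13 Aebp2 transcripts of the protein-coding type, and whether all 9 are among them was not checked.

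Per length of transcript, the 6 genes kept much the same order in the library types other than KO. Epop, the Elongin-binding subunit of PRC2.1, had the highest RPKM (CPM per kilobase of exon) in 46 of the 54 libraries and Mtf2, the main Polycomb-like protein of these cells, in the other 8. In the 2 WT H3K27me3 libraries of 10000 cells, Epop stood at 338 and 352 RPKM, Mtf2 at 119 and 111, Jarid2 at 35.8 and 38.7, Aebp2 at 8.02 and 9.31, Phf19 at 1.30 and 1.20 and Phf1 at 1.65 and 0.614. Each of the first 4 genes was separated from its neighbour in that order by more than the distance between the libraries, whereas the ranges of Phf1 and Phf19 overlapped. Phf1 and Phf19 had 10 and 14 counts in all 4 KO libraries together and no more than 157 and 62 counts in any library, and they passed the filter on low counts in only some of the comparisons.

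**Figure D1:**
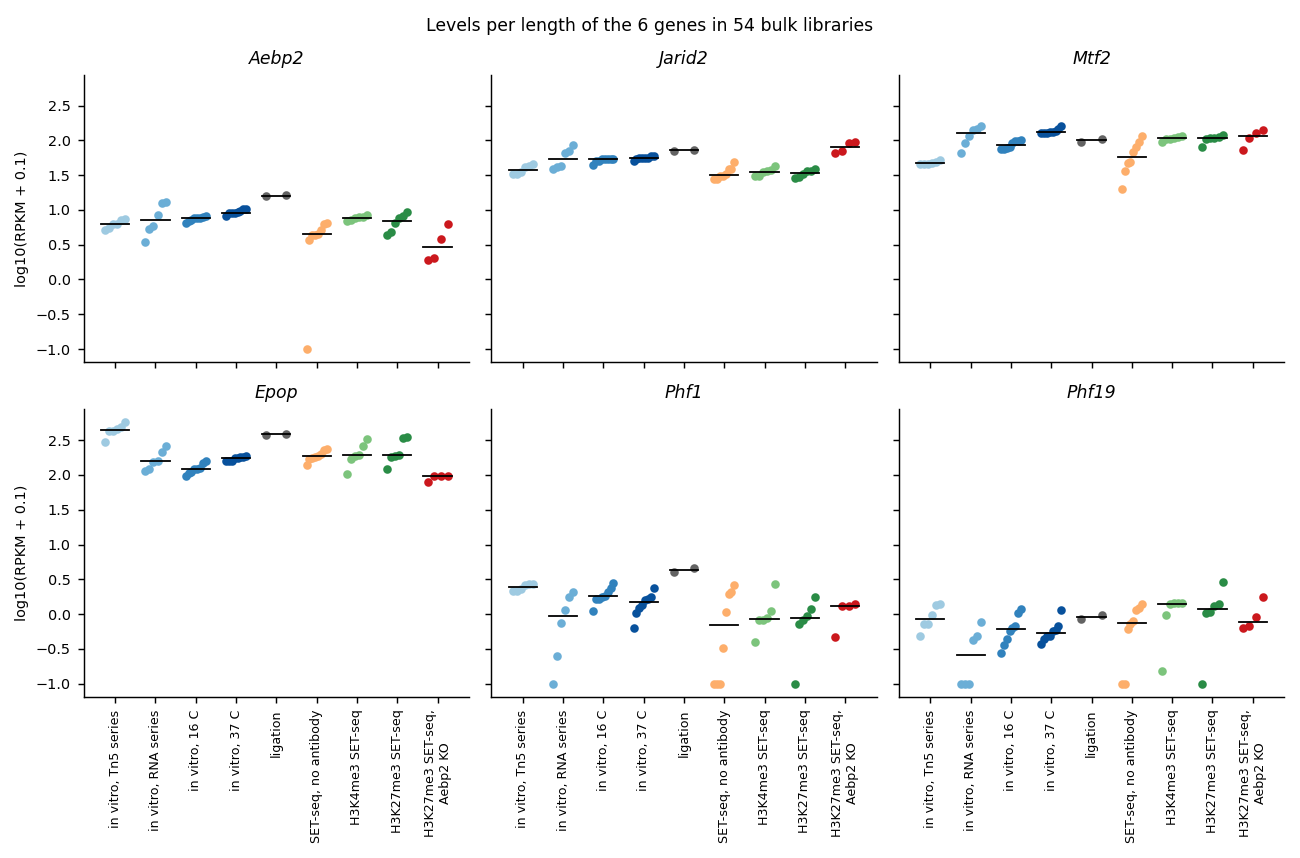
Levels per length, as log10(RPKM + 0.1), of the 6 genes in 54 bulk libraries. Each point is 1 library, the black line is the median of a library type, and points at the bottom are libraries with no count. Epop, Mtf2 and Jarid2 lie above Aebp2, and Phf1 and Phf19 lowest. In the 4 KO libraries Epop, Mtf2 and Jarid2 come to similar levels.

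In the KO libraries this order was compressed. Epop stood at 98.1, 78.0, 95.1 and 95.5 RPKM, Mtf2 at 128, 141, 106 and 71.9, and Jarid2 at 92.2, 95.7, 66.5 and 69.1 (KO1, KO1, KO2, KO2), so that the ranges of the 3 genes overlapped. As a share of the summed RPKM of all 6 genes, the median of Epop was 32.5% in the KO libraries against 56.0% in the 6 WT H3K27me3 libraries, and the median of Jarid2 was 28.6% against 9.41%. Since CPM and RPKM are shares of the RNA counted, fewer cells with a transcript and less of it per cell cannot be told apart.

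SET-seq of the KO clones addressed how expression and H3K27me3 differ genome-wide in cells with an edited Aebp2, and the expression libraries are compared here for the accessory subunits. WT here means the 2 H3K27me3 SET-seq libraries of 10000 cells, and a gene was called changed at an adjusted p under 0.05 in edgeR's quasi-likelihood test over 9523 genes. Of all genes tested, 57.3% were called in KO against WT, 27.8% higher and 29.5% lower, so that a call is common in this comparison. The median log2 fold change of all genes was -0.02, and 3607 genes in place of 5454 were called without the second WT library.

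Aebp2 itself had 65.5 and 76.0 CPM in the WT libraries, 15.7 and 15.0 CPM in KO1 and 49.7 and 30.2 CPM in KO2. Each KO library was lower than both WT libraries, and KO2 lay between KO1 and WT. Over both clones Aebp2 fell by 1.39 ± 0.22 on the log2 scale (SE, 0.381-fold, adjusted p = 7.64e-06, edgeR). In KO1 the log2 fold change was -2.12 ± 0.30 (adjusted p = 1.84e-06, edgeR). In KO2 it was -0.66 ± 0.24 (adjusted p = 0.0274, edgeR), and this call was lost with all 6 WT H3K27me3 libraries as the reference (-0.35, adjusted p = 0.400), among which the 2 libraries of 100 cells had 38.9 and 34.7 CPM. It was lost as well with DESeq2 (-0.64, adjusted p = 0.173) and when either WT library or the second KO2 library was left out, with estimates of -0.75, -0.54 and -0.36. The KO counts behind these values were small, at 16, 14, 50 and 34.

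Jarid2, the cofactor that brings PRC2.2 to chromatin together with Aebp2, was higher in both clones. It had 221 and 238 CPM in WT, 568 and 589 CPM in KO1 and 410 and 425 CPM in KO2, and all 4 KO libraries were above all 12 WT libraries with an antibody, whose highest had 264 CPM. Of all 50 libraries other than KO, 46 were below all 4 KO libraries. The 2 ligation-based libraries, at 437 and 443 CPM, were above both KO2 libraries. So were the higher in vitro library of 3 ng RNA (430 CPM) and that of 30 pg (522 CPM), both with 0 Hprt counts. The log2 fold change was 1.24 ± 0.11 over both clones (2.35-fold, adjusted p = 1.12e-09, edgeR), 1.42 ± 0.12 in KO1 and 1.05 ± 0.12 in KO2. An increase at least as large was seen in 8.73% of the genes tested.

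Epop fell in both clones. It had 787 and 821 CPM in WT, 229 and 182 CPM in KO1 and 222 and 222 CPM in KO2, and all 4 KO libraries were below all 12 WT libraries with an antibody, whose lowest had 243 CPM. The log2 fold change was -1.77 ± 0.11 (0.294-fold, adjusted p = 1.29e-12, edgeR), with -1.87 ± 0.13 in KO1 and -1.66 ± 0.13 in KO2. A fall at least as large was seen in 4.97% of the genes tested. The 2 WT libraries of 10000 cells were the highest of those 12 for Epop. With the same antibody, WT libraries of 100 cells had 286 and 419 CPM and those of 1000 cells 443 and 454 CPM. As the number of KO cells is not given, the part of the cell number in the size of this fall was not tested.

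Mtf2 was not called over both clones. It had 629 and 584 CPM in WT, 673 and 744 CPM in KO1 and 560 and 378 CPM in KO2, so that WT lay between the clones. The log2 fold change was 0.07 (95% interval -0.17 to 0.31, adjusted p = 0.621, edgeR), and -0.03 with no filter on low counts. KO1 alone was called at 0.32 ± 0.14 (adjusted p = 0.0481, edgeR), a call that ended with DESeq2 (adjusted p = 0.0886), with no filter, with the replicate block and on leaving out any WT or KO1 library, and KO2 stood at -0.18 ± 0.14 (adjusted p = 0.297, edgeR). Phf1, with 5 and 5 counts in WT and 3, 3, 3 and 1 in KO, and Phf19, with 6 and 15 in WT and 2, 2, 3 and 7 in KO, did not pass the filter and have no test. Thus 3 of the 4 testable accessory subunits were called, against 57.3% of all genes, 1 higher and 2 lower, Aebp2 among them.

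**Figure D2:**
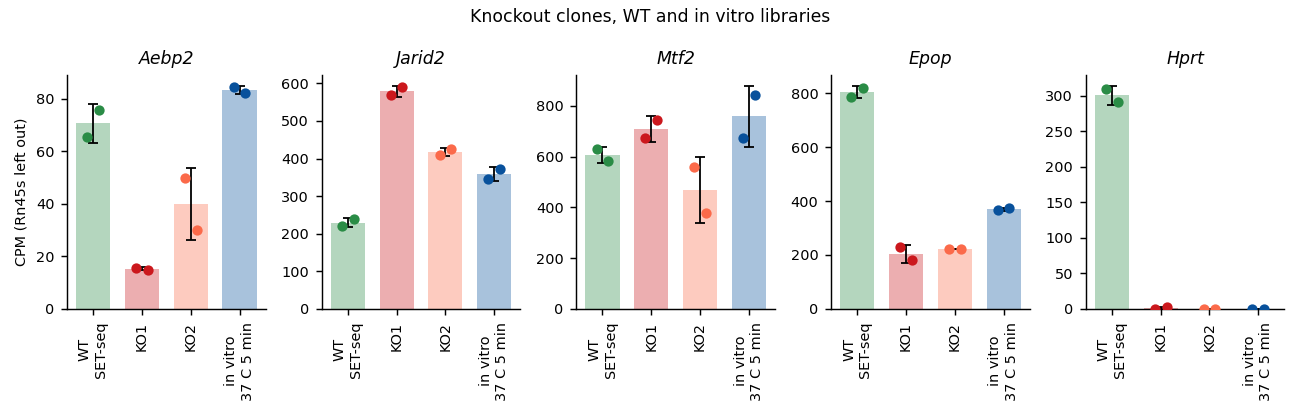
CPM of the 4 testable genes and of Hprt in the 2 WT H3K27me3 SET-seq libraries of 10000 cells, the 2 libraries of each KO clone and the 2 in vitro libraries cut at 37 °C for 5 min. Points are libraries, bars their mean and error bars the SD (n = 2). Jarid2 is higher and Epop lower in both clones than in WT, Aebp2 is lowest in KO1, and Hprt is at or near 0 in the KO and in vitro libraries alone.

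The clones were also compared with each other, which leaves out the WT libraries except for the estimate of the spread. Of all genes, 11.8% were called in KO1 against KO2, while 53.9% were called in KO1 against WT and 47.6% in KO2 against WT. Aebp2 was lower in KO1 than in KO2 by 1.46 ± 0.34 on the log2 scale (adjusted p = 0.00561, edgeR). Jarid2 and Mtf2 were higher in KO1 than in KO2, by 0.37 ± 0.12 (adjusted p = 0.0481, edgeR) and by 0.50 ± 0.14 (adjusted p = 0.0203, edgeR). Epop did not differ beyond its spread, with a log2 difference of -0.21 (95% interval -0.51 to 0.08). The call of Jarid2 was lost with DESeq2 (0.38, adjusted p = 0.116), with no filter (0.37, adjusted p = 0.153), with the replicate block (0.37, adjusted p = 0.0855) and in 5 of the 6 fits that left out 1 library, which gave 0.32 to 0.42. Only the fit without the second KO2 library kept it. The call of Aebp2 was lost on leaving out the first or the second KO1 library (-1.49 and -1.43, adjusted p = 0.0507 and 0.0653, edgeR). That of Mtf2 was lost in the same fits (0.58 and 0.43, adjusted p = 0.0726 and 0.216, edgeR) and without the second KO2 library (0.26, adjusted p = 0.194, edgeR).

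The changes of Aebp2, Jarid2 and Epop kept their direction, and those of Jarid2 and Epop became smaller, when the KO libraries were set against libraries that also lacked Hprt counts. This reference, the 2 in vitro libraries cut at 37 °C for 5 min, was chosen after the data had been examined, and it differs from the KO libraries in the RNA used (purified total RNA against cytoplasmic RNA). They had 84.6 and 82.2 CPM of Aebp2, 346 and 371 of Jarid2, 674 and 845 of Mtf2 and 366 and 374 of Epop. Over both clones the log2 fold change was then -1.73 for Aebp2 (adjusted p = 5.33e-07, edgeR), 0.48 for Jarid2 (adjusted p = 0.00390, edgeR) and -0.77 for Epop (adjusted p = 3.28e-05, edgeR). That of Mtf2 turned to -0.38 (adjusted p = 0.0219, edgeR). Jarid2 in KO2 was no longer called (0.30, adjusted p = 0.120), while KO1 was (0.66, adjusted p = 6.74e-04).

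Across the 7 reference sets tried, KO1 was called lower for Aebp2 and higher for Jarid2 with each, whereas Epop was called lower in both clones with all sets except the 28 in vitro libraries together, where the single clones stood at -1.42 (adjusted p = 0.0746, edgeR) and -1.16 (adjusted p = 0.151, edgeR). The value of Mtf2 depended most on the reference. Against the 2 SET-seq libraries of 10000 cells without antibody, with 106 and 189 CPM of Mtf2, it was called higher in both clones (log2 fold changes of 2.10 and 1.60). Aebp2 in KO2 stood at 0.08 in that comparison (adjusted p = 0.829, edgeR).

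**Figure D3:**
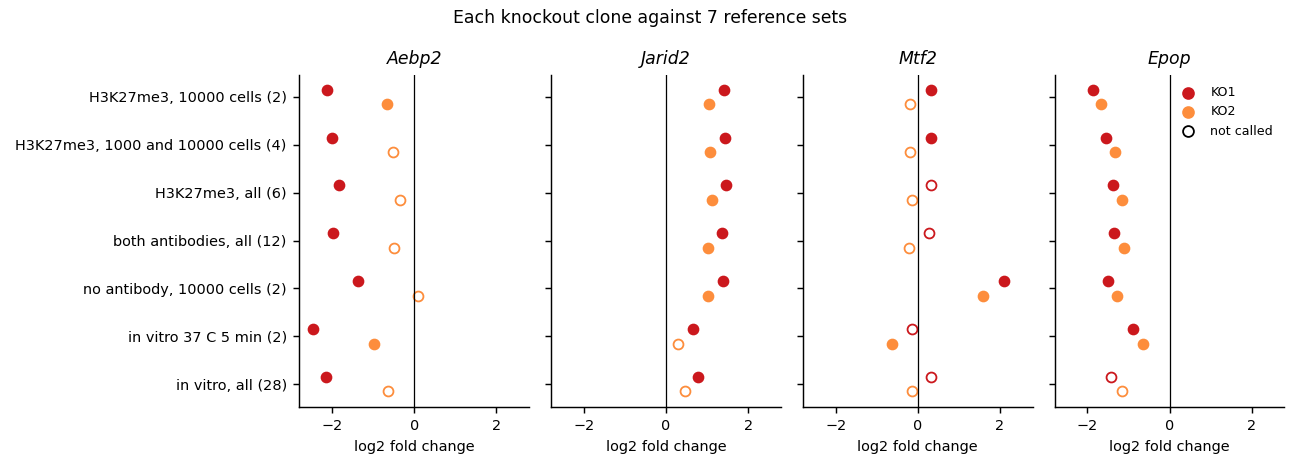
Log2 fold change of KO1 and KO2 against 7 reference sets for Aebp2, Jarid2, Mtf2 and Epop, with the number of reference libraries in parentheses. Filled points were called at an adjusted p under 0.05. Aebp2 in KO1 runs from -2.46 to -1.38, Jarid2 is above 0 throughout, Epop is below 0 throughout and Mtf2 lies on both sides of 0.

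Genes of the PRC2 core were on the same KO against WT scale. Of the 6, 4 were called higher and none lower, beside 57.3% of all genes called and 27.8% called higher. Calls in both clones in the same direction were made for 3 of them, beside 3565 of all 9523 genes. The 6 core genes had a median log2 fold change of 0.43 against -0.02 for all genes. Rbbp7, a histone chaperone shared with other complexes, rose most (1.34 ± 0.12, from 149 and 178 CPM in WT to 358 to 404 CPM in the KO libraries). Suz12, the scaffold that all accessory subunits bind, rose by 0.74 ± 0.12, Eed, the reader of H3K27me3, by 0.48 ± 0.12 and Ezh2, the methyltransferase, by 0.39 ± 0.12. Ezh1 (0.24 ± 0.24) and Rbbp4 (0.14 ± 0.11) were not called. Suz12 was higher in KO1 than in KO2 (0.59, adjusted p = 0.00512, edgeR), as Mtf2 and Jarid2 were.

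All 5 testable further PRC2 partners were called, 3 higher and 2 lower, beside 27.8% of all genes called higher and 29.5% lower. Calls in both clones in the same direction were made for 4 of them, beside 3565 of all 9523 genes. Lcor, which takes the place of Epop in PRC2.1, rose by 1.48 ± 0.19, from 32.3 and 34.2 CPM in WT to 68.6 to 99.1 CPM in the KO libraries, and its relative Lcorl, named here after its values were seen, by 1.55 ± 0.45, with KO2 alone not called (adjusted p = 0.0509, edgeR). The Elongin subunits Elob and Eloc, which bind Epop, fell by 1.16 ± 0.11 and by 0.93 ± 0.14. Usp7, a deubiquitinase, rose by 1.31 ± 0.11. AU022751 did not pass the filter on low counts.

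Among the 21 testable PRC1 genes, whose complexes bind or act beside H3K27me3, 7 were called higher, 3 lower and 11 not, beside 57.3% of all genes called. Calls in each clone in the same direction were made for 9 of the 21, beside 3565 of all 9523 genes. The 4 largest changes shared by both clones were those of Pcgf1, a subunit of variant PRC1 (-1.83 ± 0.33), Mga (1.79 ± 0.12) and Bcor (1.77 ± 0.22), both partners of variant PRC1, and Cbx6, a chromodomain subunit (1.50 ± 0.27). Of the H3K27 demethylases, Kdm6b was called higher (1.35 ± 0.16) and Kdm6a was not (0.44 ± 0.20). None of the 16 Polycomb target genes listed passed the filter on low counts. Klf4, a pluripotency factor, had 412 and 436 CPM in WT and 53.4 to 78.5 CPM in the KO libraries, and 4 of the 8 pluripotent cell markers were called lower (Klf4, Nanog, Zfp42 and Tfcp2l1), beside 29.5% of all genes. Of the other cell types' markers, 5 reached the filter. Lama1 and Tubb3 were called lower, Eomes and Nes higher, and Thy1 was not called. The summed mesoderm markers were at 36.4 to 45.7 CPM in the KO libraries and 9.59 to 22.6 CPM in the WT H3K27me3 libraries. Eomes alone made 28.9 to 37.8 CPM of this sum in the KO libraries and 11.1 and 12.1 CPM in the WT libraries of 10000 cells, and no other mesoderm marker passed the filter. The summed primitive endoderm markers were lower, at 11.6 to 21.6 CPM in the KO libraries against 16.9 to 47.1 CPM in the WT H3K27me3 libraries. The part of these differences in the values of the accessory subunits was not tested.

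The in vitro libraries were compared to see how the cutting step itself moves the counts of each gene. At 37 °C against 16 °C (8 libraries each, time as a factor), 63.4% of all genes were called. Mtf2 was higher at 37 °C by 0.71 ± 0.06 on the log2 scale, and its libraries did not overlap, at 673 to 845 CPM (median 700.1) against 390 to 532 (median 453). Epop was higher by 0.54 ± 0.06, at 366 to 436 CPM (median 407) against 227 to 370 (median 283). Aebp2 was higher by 0.39 ± 0.07, at 65.6 to 84.6 CPM (median 74.0) against 51.5 to 64.9 (median 61.1). Jarid2 was called at 0.16 ± 0.06 (adjusted p = 0.0111, edgeR), a call lost with the 5 min libraries alone (0.23, adjusted p = 0.153), with no filter (0.11, adjusted p = 0.184), without the second library at 16 °C for 30 min (0.12, adjusted p = 0.0584) and without the first at 37 °C for 15 min (0.13, adjusted p = 0.0556). Phf1 at -0.51 ± 0.24 (adjusted p = 0.0587, edgeR) and Phf19 at -0.18 ± 0.38 were not called. Between the 2 libraries at 37 °C for 5 min and the 2 ligation-based libraries, 55.2% of all genes were called. Mtf2 was higher in the cut libraries (0.79 ± 0.11), Epop (-1.03 ± 0.10) and Aebp2 (-0.38 ± 0.14, from 127 and 132 CPM by ligation) were lower, and Jarid2 was not called (-0.05, 95% interval -0.25 to 0.16). The call of Aebp2 was lost without the first or the second 37 °C library (-0.43 and -0.38, adjusted p = 0.0676 and 0.0828, edgeR) and without the second ligation-based library (-0.37, adjusted p = 0.0561, edgeR). These libraries differed in Hprt as well, and the part of the cell stock was not tested.

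With 30 pg against 300 ng of RNA, 22.7% of all genes were called, and the median log2 fold change of all genes was -0.44. Epop was lower (-1.27 ± 0.19, adjusted p = 0.0191, edgeR), at 285 and 266 CPM against 617 and 502. This call was lost with the replicate block and on leaving out any library of 300 ng or 3 ng, where no gene at all was called. Aebp2 had 27.7 and 68.0 CPM at 30 pg, on either side of its 46.9 and 42.9 CPM at 300 ng, and was not called, nor were Jarid2, Mtf2 and Phf1. Counts of Aebp2 at 30 pg were 76 and 22. In simulated counts this fit recovered 1% of the added 2-fold and 11% of the added 4-fold changes, so that a gene not called may still differ.

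Cytoplasmic RNA of 10000 cells against total RNA, both cut at 37 °C for 5 min, gave lower Aebp2, Jarid2 and Mtf2 and higher Epop. Of all genes 49.8% were called. Mtf2 differed most, at 106 and 189 CPM against 674 and 845 (-2.30 ± 0.26, adjusted p = 9.49e-05, edgeR). Aebp2 had 34.5 and 36.4 CPM against 84.6 and 82.2 (-1.16 ± 0.22, adjusted p = 0.00161, edgeR), and Jarid2 189 and 198 against 346 and 371 (-0.81 ± 0.18, adjusted p = 0.00377, edgeR), a call lost without the second in vitro library (-0.78, adjusted p = 0.0543, edgeR). Epop had 542 and 472 CPM against 366 and 374 (0.54 ± 0.19, adjusted p = 0.0368, edgeR), a call lost on leaving out either in vitro library or the first SET-seq library. Hprt was at 66.2 and 125 CPM in the SET-seq libraries and at 0 in both in vitro libraries, so that the RNA fraction and the cell stock cannot be told apart here.

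The 12 SET-seq libraries with an antibody in their label were compared with the 6 without, at 100 to 10000 cells. The cell number was a factor, and 40.6% of all genes were called. Since the RNA was taken off before the antibody was added to the nuclei, this is a comparison of library series and not of an antibody effect on the RNA. Mtf2 was 2.01-fold higher in the libraries labelled with an antibody (log2 fold change 1.01 ± 0.17, adjusted p = 5.00e-05, edgeR). Its 12 libraries ran from 420 to 629 CPM, while the 6 without antibody ran from 106 to 496 CPM, with the lowest values at 10000 cells. Aebp2 was 1.46-fold higher (0.54 ± 0.15, adjusted p = 0.00586, edgeR). Jarid2 (-0.06, 95% interval -0.26 to 0.14) and Epop (0.01, 95% interval -0.25 to 0.26) were not called, and smaller changes than these intervals span were not detectable. Hprt was called higher as well (0.83 ± 0.14), and its part in these differences was not tested.

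Between the H3K27me3 and H3K4me3 antibodies, 0% of 11616 genes were called by edgeR or by DESeq2, with 361 genes at an unadjusted p under 0.05 in edgeR. The 95% intervals were -0.58 to 0.05 for Aebp2, -0.26 to 0.06 for Jarid2, -0.19 to 0.11 for Mtf2 and -0.14 to 0.34 for Epop. Between 10 and 10000 cells without antibody, 0% of 11916 genes were called by edgeR, with 2051 at an unadjusted p under 0.05, while DESeq2 called 234. In simulated counts this fit recovered 0% of the added 2-fold and 5% of the added 4-fold changes, so that a lack of calls shows little. Mtf2 had 358 and 600 CPM at 10 cells against 106 and 189 at 10000 cells, with a log2 fold change of 1.40 ± 0.42 (adjusted p = 0.198, edgeR). It passed the threshold without the 2 libraries under 250000 counts (1.28, adjusted p = 0.0493, edgeR) and on leaving out the first or the second library of 10 cells (1.47 and 1.27). Each of these settings leaves 1 library of 10 cells, which is assumed to vary like the other groups, and the genes called then rose from 0 to 1200, 4113 and 1440, so that Mtf2 is reported as not called. Aebp2 had 193 counts in one library of 10 cells and 0 of 188275 in the other, so that its value (-0.20, 95% interval -2.20 to 1.81) rests on which of the 2 libraries is used.

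**Figure D4:**
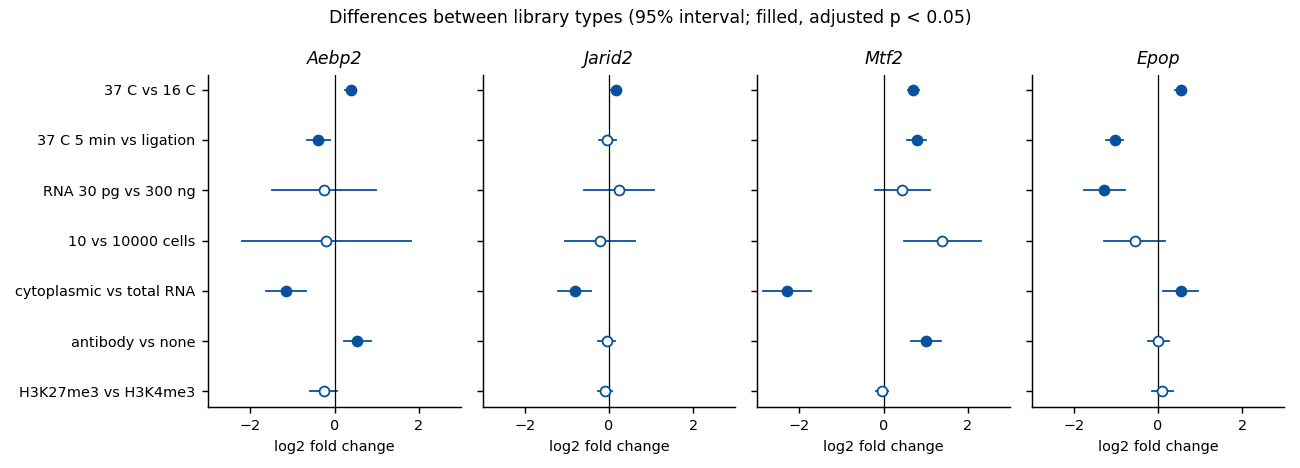
Log2 fold change with its 95% interval for Aebp2, Jarid2, Mtf2 and Epop in 7 comparisons of library types. Filled points were called at an adjusted p under 0.05. Mtf2 moves most, from -2.30 (cytoplasmic against total RNA) to 1.40 (10 against 10000 cells), and Jarid2 least.

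Genes whose levels ran most like those of each member were found by the Pearson correlation of log2(CPM + 1) over the 54 libraries among 12741 genes. These libraries share preparation series, so r is a description. For Mtf2 the 3 nearest genes were Csnk1a1 (r = 0.906), Suz12 (r = 0.903) and Eif5 (r = 0.899). For Aebp2 they were Clint1 (r = 0.90), Tmem131 (r = 0.886) and Mtfr1 (r = 0.885), and for Jarid2 Tead1 (r = 0.914), Zyg11b (r = 0.884) and Eml4 (r = 0.873). For Phf1 they were Plxna3 (r = 0.870), Mcoln1 and Slit3, for Phf19 Efs (r = 0.732), Upk1a and Rspo1, and for Epop Nkx6-2 (r = 0.729), Calb2 and Cdk4. Between the members themselves r was highest for Jarid2 with Mtf2 (0.509) and lowest for Mtf2 with Epop (-0.392).

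The single-cell tables held 384 cells in 10 experiments with the H3K27me3 antibody and 368 cells in 6 experiments with the H3K4me3 antibody, of which 335 and 210 had more than 1000 and fewer than 5000 genes. The reads carried no molecular identifiers, and the median was 198020 and 93762.5 reads per cell. Experiments used the same 96 (H3K27me3) and 80 (H3K4me3) well barcodes again, 80 of which occurred in both tables, so that a cell is defined by its experiment and barcode. The label of the cells was checked on 7 listed pluripotent cell markers, whose sum was 537 to 3645 CPM in H3K27me3 experiments 1 to 7 but 22.5, 6.45 and 13.9 CPM in experiments 8, 9 and 10. Across 17621 genes these 3 experiments, with 165 of the 335 cells, had correlations with the bulk SET-seq libraries of -0.01, -0.01 and -0.05, against 0.22 to 0.59 in the other 7. H3K4me3 experiment 1, with 4 cells, had 20.4 CPM of these markers and r = 0.20. The embryonic stem cell markers were thus near absent from these 4 experiments, and values are given without them where they move.

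Aebp2 was among the most counted genes of the H3K27me3 cells. It took 2099779 of 109692059 reads, 19142 CPM, the second most of 17621 genes, and was present in 335 of 335 cells (95% exact binomial interval 98.9% to 100%). Without experiments 8 to 10 it stood at 16259 CPM, with rank 4. In bulk SET-seq with the same antibody it had 70.7 CPM, so that the ratio was 271, a ratio reached by 71 of 12690 genes. The 10 experiments gave 15883, 27199, 123, 75820, 30628, 18369, 12912, 22737, 26279 and 13776 CPM, of which all but that of experiment 3 were over 100 times the bulk level. Experiment 3, at 123 CPM, was also the one with the largest share of its reads (83.3%) in genes with at least 20 CPM in bulk, a share that was 91.9% in bulk and 33.8% to 67.0% in the other 9. The 25 most counted genes of these cells took 25.2% of their reads but 1.20% of the bulk counts, and 16 of the 25 had under 10 CPM in bulk. Reads in introns were counted in the single cells and not in bulk, and the part of this and of PCR copies in the level of Aebp2 was not tested.

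In the H3K4me3 cells Aebp2 split between experiments. It was at 7042 and 7868 CPM and present in every cell of experiments 4 and 6, and at 44.4, 33.3 and 85.1 CPM and present in 35.3%, 42.1% and 67.4% of the cells of experiments 2, 3 and 5. The latter 3 values lie around the bulk level of 60.2 CPM with this antibody. Experiment 1 had no Aebp2 read in 4 cells.

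Jarid2 was at 241 CPM in the H3K27me3 cells (478 CPM without experiments 8 to 10) and at 1135 CPM in the H3K4me3 cells (624 CPM without experiment 1), against 230 and 248 CPM in the matching bulk libraries. It was present in 54.9% of the H3K27me3 cells (95% interval 49.4% to 60.3%; 90.0% without experiments 8 to 10) and in 81.9% of the H3K4me3 cells (76.0% to 86.9%). By experiment it ran from 93.5 to 1402 CPM in H3K27me3 experiments 1 to 7, was at 1.24, 0.176 and 1.66 CPM in experiments 8 to 10, and ran from 47.2 to 7695 CPM with H3K4me3. Mtf2 was at 115 CPM (229 CPM without experiments 8 to 10) and 163 CPM (175 CPM without H3K4me3 experiment 1), below its bulk levels of 606 and 597 CPM. It was present in 28.4% of the H3K27me3 cells (23.6% to 33.5%; 53.5% without experiments 8 to 10) and in 61.4% of the H3K4me3 cells (54.5% to 68.0%), and in 3, 0 and 1 cells of experiments 8 to 10. Thinned to 25000 reads per cell, the shares were 96.7% for Aebp2, 24.7% for Jarid2 and 13.5% for Mtf2 in 275 H3K27me3 cells and 48.0%, 65.2% and 42.6% in 204 H3K4me3 cells. Without H3K27me3 experiments 8 to 10 they were 91.9%, 55.0% and 33.3% in 111 cells, and without H3K4me3 experiment 1 they were 49.0%, 66.0% and 43.5% in 200 cells. Phf19 had 7 reads in 5 H3K27me3 cells and 5 reads in 4 H3K4me3 cells, and Phf1 had 1 read in all. These intervals cover counting error only.

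**Figure D5:**
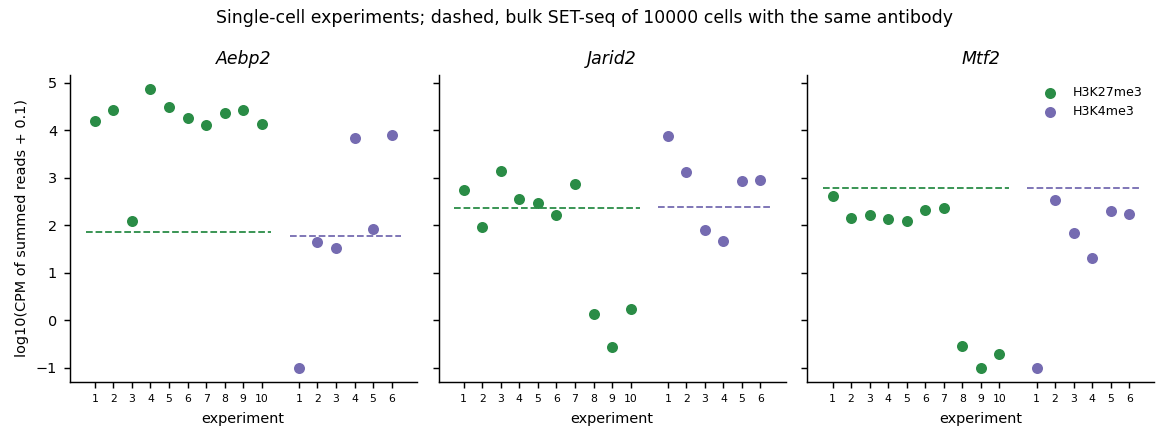
Level of Aebp2, Jarid2 and Mtf2, as log10(CPM + 0.1) of the summed reads, in each of the 10 H3K27me3 and 6 H3K4me3 single-cell experiments. The dashed lines give the mean of the 2 bulk SET-seq libraries of 10000 cells with the same antibody. Aebp2 lies far above its bulk line in 9 of 10 H3K27me3 and 2 of 6 H3K4me3 experiments, and Jarid2 and Mtf2 drop in H3K27me3 experiments 8 to 10.

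Epop, the most abundant of the 6 per length in bulk, had no row in either single-cell table. Of the 31 genes within 1000000 bases of it that had at least 20 CPM in bulk, 16 had no row either (51.6%), while 267 of all 7092 genes at that level had none (3.76%). Its absence is thus shared with 16 of these 31 neighbours on chromosome 11. Every gene listed in the single-cell tables had at least 1 read, so a gene without reads may also lack a row. The missing row gives no level for Epop, and its cause was not tested.

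Proximal and distal daughter cells were compared on reads summed per experiment and position, over the 14 experiments with at least 3 cells of both positions (28 sums of 533 cells), with the experiment as a block. No gene of 12880 was called by edgeR (0%), with 1159 at an unadjusted p under 0.05, while DESeq2 called 21. In simulated counts this fit recovered 0% of the added 2-fold and 0% of the added 4-fold changes. The lack of calls therefore does not show that the positions are alike. The median log2 fold change of all genes was 0.11. Aebp2 was higher in the proximal cells in 7 of 14 experiments, with a log2 fold change of 0.04 (95% interval -0.87 to 0.96), which was -0.22 without H3K27me3 experiments 8 to 10. Jarid2 was higher in 10 of 14 (0.32, 95% interval -0.65 to 1.30) and Mtf2 in 7 of 14 (0.52, 95% interval -0.72 to 1.76). All 3 intervals include changes of more than 1.5 times in either direction. Within the clusters the study made from the same expression values (Mix, Proxi and Dista), Aebp2 was highest in Mix in 5 of 5 H3K27me3 experiments with at least 3 cells of each cluster, with medians of 35005, 17447 and 14773 CPM. In the 4 such H3K4me3 experiments it was highest in Mix in 1 and lowest in Mix in 2, with medians of 19.0, 82.5 and 54.8 CPM. Since these values entered the clustering, they are a description.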

How the data were processed

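Cytoplasmic, total and single-cell RNA of mouse embryonic stem cells was sequenced. Per the study's methods and the labels, the authors trimmed reads with Trim Galore 0.6.4, aligned them to mm9 with STAR 2.5.4b and deposited raw read counts per gene from featureCounts (2.0.0, and 2.0.1 for the 4 KO libraries), counted over exons without strand and without multi-mapping or multi-overlapping reads. The single-cell tables hold raw read counts that the authors made with zUMIs from exons and introns, without molecular identifiers.

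CPM and RPKM were computed from the counts without Rn45s. Bulk libraries held 235040 to 21520982 counts. Comparisons used edgeR 4.0.16 (TMM, filterByExpr, quasi-likelihood test, Benjamini-Hochberg adjusted p under 0.05) in R 4.3.3. Alternatives were DESeq2 1.42.0, limma 3.58.1 for single cells, other size factors, no filter, Rn45s kept, other references, a replicate block and each library left out. The position and cluster of each cell were taken from the study's cell list. Single cells were summed per experiment and position (at least 3 cells). No doublet caller was run. The study describes the in vitro libraries of each temperature and time as biologically independent, and the 2 experiments per KO clone as independent. For the other bulk groups nothing used here says so, and their p-values may measure technical spread. Named genes were the 6 members, the PRC2 core list, at most 4 genes per other list called in both clones by absolute fold change, and the 3 genes most alike. Members and lists were chosen with earlier results of these data known. The fits for KO, temperature, RNA amount, cell number, antibody and position were tested on simulated counts with 200 added changes each. Those for KO, temperature and antibody recovered 83% to 100% of the 2-fold changes, and the others at most 1%.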

Additional observations from a re-analysis of the deposited data

Results flagged for a closer look

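Among 17 groups of single-cell experiments examined for a value far from the rest, 6 had one. Phf1 and Phf19 were each flagged both in CPM and in percent of cells, from the same reads. A gene with reads in a single experiment, as Phf1, is flagged in any case. The rule is made for normally spread values, and these hold many zeros, so the 6 cannot be set against a chance rate. Aebp2 was highest in H3K27me3 experiment 4, at 75820.2 CPM, with 15 cells and a median of 9336 reads per cell. Jarid2 was highest in H3K4me3 experiment 1, at 7694.81 CPM, which held 4 cells with a Jarid2 read in 2 of them. Phf1 had its only read in H3K4me3 experiment 2, at 0.110708 CPM and 2.94118% of the cells. Phf19 was highest in H3K4me3 experiment 6, at 1.46352 CPM and 9.09091% of the cells, from reads in 2 cells.

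The KO clones differed from each other in 3 members by the edgeR test of KO1 against KO2, with log2 differences of -1.46 for Aebp2, 0.37 for Jarid2 and 0.50 for Mtf2. The call of Jarid2 was lost with DESeq2, with no filter, with the replicate block and in 5 of the 6 fits that left out 1 library, and those of Aebp2 and Mtf2 were lost on leaving out either one of the KO1 libraries.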

How the results depend on the processing

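Counts of called genes moved over 1.5 times in these settings. With DESeq2, KO1 against KO2 gave 524 genes, 10 against 10000 cells 234 and proximal against distal 21. The study's rule (unadjusted p under 0.05 and a 2-fold change) gave 2857 for KO, 3165 for KO1, 2744 for KO2 and 664 between clones. The 28 in vitro libraries as reference gave 3396 for KO1 and 2796 for KO2, and 5 min alone gave 3367 for temperature. With no filter, 10 against 10000 cells gave 177 and proximal against distal 2. Without the 2 shallow libraries the former gave 1200.

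Members changed sign as follows. Mtf2 in KO was -0.035 with no filter and -0.38 (KO1 -0.13) against in vitro 37 °C libraries. Against SET-seq without antibody, KO2 gave 0.079 for Aebp2 and 1.60 for Mtf2. Phf1 by temperature was 0.21 at 5 min alone. Without shallow libraries, Aebp2 was 0.55 at 10 against 10000 cells and Jarid2 0.021 with antibody against none. Proximal against distal, Aebp2 was -0.12 with DESeq2 and with its size factors, -0.011 with no filter, -0.62 with H3K27me3 alone, -0.22 without experiments 8 to 10 and -0.20 with limma. Jarid2 was -0.097 with H3K27me3 alone and -0.091 with limma. The causes were not tested.

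Leaving out 1 library gave 3607 to 5777 genes for KO, 311 to 1791 between clones, 0 to 8013 for RNA amount and 0 to 4113 for 10 against 10000 cells. Estimates then spanned 0 for Mtf2 in KO (-0.066 to 0.19) and KO2 (-0.46 to 0.063), Phf19 by temperature (-0.38 to 0.036), ligation (-0.21 to 0.63), mark (-0.82 to 0.51) and antibody (-0.25 to 0.31), Aebp2 (-0.89 to 0.21) and Jarid2 (-0.30 to 0.62) by RNA amount, Aebp2 by cell number (-10.02 to 0.53), Mtf2 by mark (-0.082 to 0.027), Jarid2 (-0.087 to 0.021) and Epop (-0.061 to 0.082) by antibody and Aebp2 by position (-0.21 to 0.26).

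In the KO fit, same-numbered libraries shared little more than a number (median correlation of deviations -0.03, highest 0.007). Medians were also low for temperature (0.03), ligation (0.03), RNA amount (-0.004) and cell number (0.05). Single pairs of groups in these fits reached 0.54, 0.54, 0.24 and 0.25. For cytoplasmic against total RNA the only pair had 0.25. Some same-numbered libraries outside the KO fit may therefore share more than a number. The replicate block left 5107 genes for KO, 0 for RNA amount and 13 for 10 against 10000 cells. Without the experiment block, proximal against distal gave 55 genes and Mtf2 -0.66.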
